A study of Mus musculus with 6 samples.

Results

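The complement components described here are 9 genes of the deposited gene expression table, chosen by symbol: C1qa, C1qb, C1qc, C1ra, C2, C3, C4b, Cfb and C3ar1. They are 9 of 18280 genes in the table, and all 9 had enough counts to be tested. Their transcripts were measured by RNA sequencing of whole ovaries from 3 mice carrying a Dennd1a transgene (TG, genotype Dennd1aTG) and from 3 wild-type mice (WT). All 6 mice had received PMSG, a gonadotropin with FSH activity, 44 h earlier. The promoter and construct of the transgene, the mouse strain and the age of the animals are not given in the labels.

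Complement is a cascade of plasma and tissue proteins that marks cells and particles for uptake and lysis. In the classical pathway C1q, built from the A, B and C chains, binds its target and activates the proteases C1r and C1s, which cleave C4 and C2. In the alternative pathway factor B takes the place of C2, and both routes converge on the cleavage of C3. Tissue macrophages are the main source of C1q, the liver makes most circulating C3, and stromal cells make C1r, C1s and regulators. Interferons are known to raise C2, factor B and C4 transcripts in several cell types.

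Library totals ran from 17075484 to 18516171 estimated counts, and Dennd1a measured between 570 and 588 CPM (counts per 1000000 counts) in TG against 39.5 to 49.3 CPM in WT libraries, so each library carried the level its genotype label calls for. The tissue label was checked on 8 granulosa cell genes. They summed to between 5531 and 6288 CPM in TG and between 5092 and 6482 CPM in WT libraries, and none was at 0 in any library. TG replicate 2 stood apart in adipocyte genes, with 191 CPM summed over 7 of them against 15.5 to 36.9 CPM elsewhere. WT replicate 3 stood apart in the oviduct gene Ovgp1, at 40.9 CPM against 5.99 CPM or less elsewhere. The 4 listed oviduct genes summed to 42.8 CPM in WT replicate 3 and to 6.71 CPM or less elsewhere. The rest of them, Foxj1, Pax8 and Wfdc2, measured only 0.294, 0.705 and 0.881 CPM in WT replicate 3.

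All 9 complement genes had lower fitted levels in TG than in WT ovaries, but only C4b passed the test over all genes. C4b, the fourth component and substrate of C1s, was 3.28-fold lower in TG. Cfb, C3ar1, C1qa, C2, C1qc and C1qb had log2 fold changes, TG over WT, between -1.40 and -0.66 and did not pass at an adjusted p under 0.05. C1ra and C3 lay closest to no difference, at -0.35 and -0.15. Thus 1 of 9 complement genes was called by edgeR, where 1.05% of all 14124 tested genes were called and 1.02% were called lower. An unadjusted p under 0.05 with a lower level in TG was found for 7 of 9 complement genes and for 3.14% of all tested genes. For the same 7 genes every TG library lay below every WT library, as it did for 5.04% of all tested genes. The median log2 fold change of the 9 genes was -0.68, against 0.00 over all tested genes, and 49.1% of all tested genes had a value below 0.

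**Figure D1:**
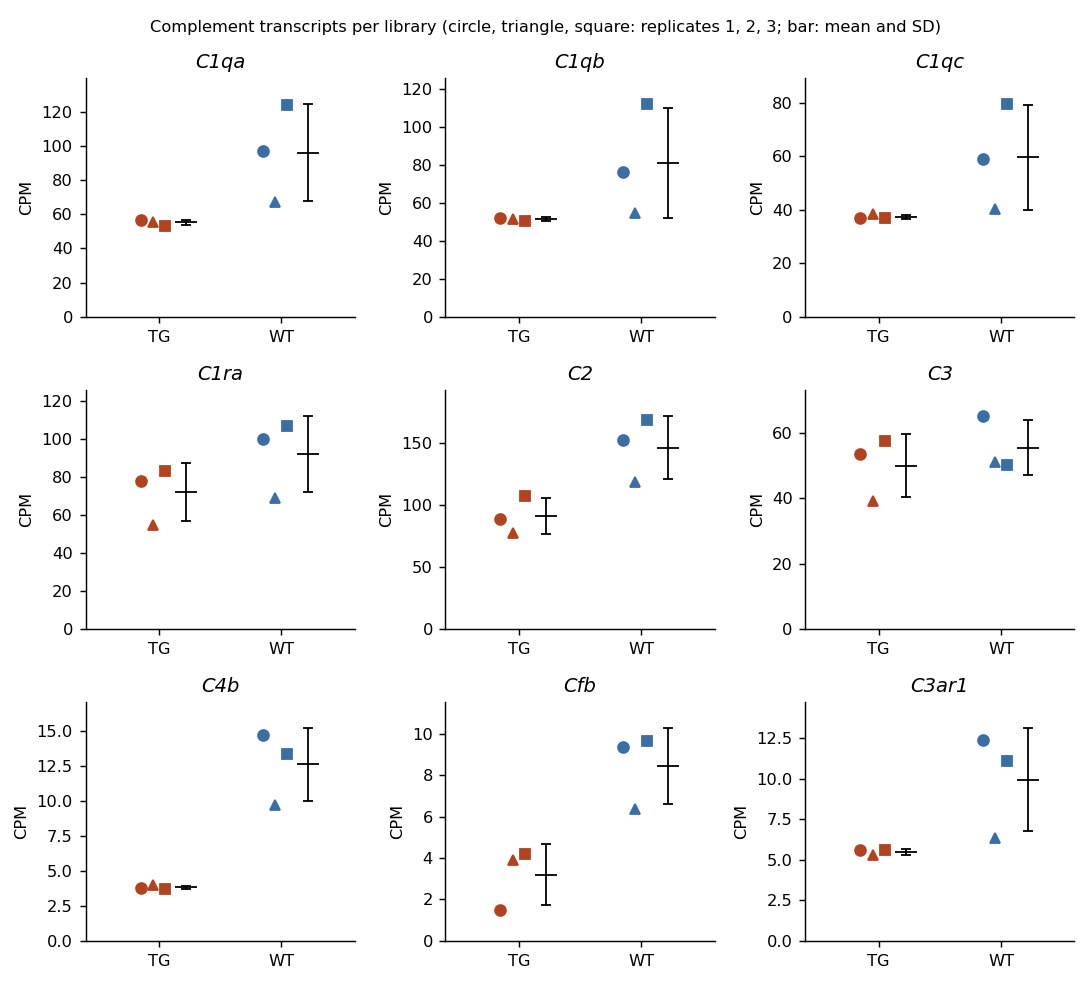
Level of each complement gene in CPM (vertical axis from 0) in the 3 TG libraries (left) and the 3 WT libraries (right), with replicates 1, 2 and 3 as circle, triangle and square and the group mean ± SD as a black bar. The groups overlap for C1ra and C3 only, and for C1qa, C1qb, C1qc and C3ar1 the TG libraries lie close together and WT replicate 2 is the WT library nearest to them.

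C1qa, C1qb and C1qc encode the A, B and C chains of C1q and lie side by side on chromosome 4 (GRCm38.p6, minus strand), C1qb at 136880126 to 136886200, C1qc at 136889801 to 136892936 and C1qa at 136895916 to 136898844. C1qa measured 56.6, 55.5 and 53.4 CPM in TG replicates 1 to 3, against 96.8, 67.1 and 124 CPM in WT replicates 1 to 3. C1qb measured 52.2, 51.6 and 50.3 CPM in TG, against 76, 54.6 and 112 CPM in WT. C1qc measured 37, 38.3 and 36.8 CPM in TG, against 58.9, 40.2 and 79.6 CPM in WT. The TG libraries were nearly alike and the WT libraries were spread, with WT replicate 2 lowest and WT replicate 3 highest for all 3 chains. The standard deviation was between 1.93% and 2.98% of the mean in TG and between 29.6% and 35.9% in WT.

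The mean of C1qa was 55.2 ± 1.64 CPM in TG ovaries and 96 ± 28.4 CPM in WT ovaries (SD, n = 3 each). Its TG-over-WT log2 ratio was -0.80 (SE 0.18), the 95% interval ran from -1.21 to -0.38, and edgeR gave an adjusted p of 0.133. The log2 ratio was -0.66 for C1qb, with an interval from -1.13 to -0.18 and an edgeR adjusted p of 0.595, and -0.67 for C1qc, with an interval from -1.13 to -0.22 and an edgeR adjusted p of 0.454. These calls turned on the tool and on WT replicate 2. With all libraries DESeq2 called C1qa (adjusted p = 6.77e-04) and C1qc (adjusted p = 0.0394) lower. Without WT replicate 2 all 3 chains passed in edgeR, C1qa at -1.0 (adjusted p = 0.00199), C1qc at -0.89 (adjusted p = 0.00908) and C1qb at -0.87 (adjusted p = 0.0258). Without WT replicate 3 the values moved the other way, with -0.57 for C1qa, -0.41 for C1qc and -0.35 for C1qb.

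C1qa was lower in TG relative to both other chains, while C1qb and C1qc stood in a like ratio in both genotypes. On the length-adjusted scale of the authors' FPKM columns the level of C1qa was 1.06, 1.05 and 1.04 times that of C1qb in TG and 1.25, 1.20 and 1.08 times in WT. Relative to C1qc the level of C1qa was 1.48, 1.4 and 1.4 times in TG, and 1.59, 1.62 and 1.51 times in WT. The groups did not overlap in either ratio, but TG replicate 1 and WT replicate 3 lay close, at 1.06 against 1.08 and 1.48 against 1.51. These ratios were given no test. The ratio of C1qb to C1qc lay between 1.28 and 1.4 over all 6 libraries, and the groups overlapped.

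RefSeq promoters (GRCm38.p6, 250 bases before to 50 bases after the start) were matched for 5 of the 9 genes, C1qb, C1qc, C1ra, C3 and C3ar1. Those of C1qb and C1qc are shown because these neighbouring genes had like profiles over the libraries. Capitals mark a match, on either strand, to GAGGAAG, core letters of the myeloid transcription factor PU.1, or to AANNGAAA, core letters bound by interferon regulatory factors (IRF). These motifs share no overlapping match here.
C1qb, chr4:136886151-136886450, minus strand: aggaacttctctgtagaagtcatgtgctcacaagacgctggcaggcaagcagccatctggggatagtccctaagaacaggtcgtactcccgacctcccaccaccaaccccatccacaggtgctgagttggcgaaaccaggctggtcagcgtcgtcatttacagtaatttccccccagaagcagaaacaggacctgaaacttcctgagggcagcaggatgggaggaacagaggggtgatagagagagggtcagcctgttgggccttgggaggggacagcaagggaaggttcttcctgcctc
C1qc, chr4:136892865-136893164, minus strand: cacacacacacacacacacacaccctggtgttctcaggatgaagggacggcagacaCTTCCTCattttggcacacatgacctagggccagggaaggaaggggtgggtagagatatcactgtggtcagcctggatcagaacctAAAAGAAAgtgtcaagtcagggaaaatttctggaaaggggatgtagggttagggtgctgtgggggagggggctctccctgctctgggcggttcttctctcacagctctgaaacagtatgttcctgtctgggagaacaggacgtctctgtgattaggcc
The PU.1 core was found in the C1qc promoter, at positions -194 to -188 from the start and on the opposite strand, and in no other of the 5, while 13.6% of 32851 mouse promoters hold it. The IRF core was in the promoters of C1qc, at -108 to -101, C3, at -119 to -112, and C3ar1, at -209 to -202, 3 of the 5, and in 23.9% of all promoters. The stricter form with GA directly before these letters, searched first, was in 0 of the 5 and in 3.44% of all promoters. The GAS motif, TTCNNNGAA, which reads the same on both strands, was in the C1ra promoter only, at positions 33 to 41 counted from the start, and in 8.3% of all promoters.

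C1ra encodes the protease C1r (chromosome 6, 124512621 to 124523440, plus strand). It measured 77.9, 54.8 and 83.4 CPM in TG, against 99.9, 69.2 and 107 CPM in WT. The groups overlapped, with replicate 2 the lowest library in each genotype. The log2 ratio of TG to WT was -0.35 (SE 0.19), its 95% interval of -0.78 to 0.07 includes 0, and the edgeR adjusted p was 1.0. It was -0.19 without TG replicate 2 and -0.23 without WT replicate 3. C1ra has a near copy, C1rb, whose transcript matched it at 98% of 2429 aligned bases. Of the 100-base windows of C1ra, a length chosen here, 34.5% occur in C1rb. In all 6 libraries the estimated count of C1ra was a fraction, as happens when a read is shared out between matching genes. C1rb itself lay between 0.274 and 0.808 CPM, too low to be tested.

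C4b and C2 encode the substrates of C1s, and both lie with Cfb in the major histocompatibility complex on chromosome 17 (minus strand), C4b at 34728139 to 34743902, Cfb at 34856374 to 34862514 and C2 at 34862602 to 34882100. C4b measured 3.77, 3.96 and 3.73 CPM in TG, against 14.7, 9.68 and 13.3 CPM in WT. The groups were far apart, and the lowest WT library was 2.53 times the TG mean. The mean of C4b was 3.82 ± 0.123 CPM in TG ovaries and 12.6 ± 2.59 CPM in WT ovaries (SD, n = 3 each). Its log2 ratio was -1.71 (SE 0.19), the 95% interval ran from -2.14 to -1.29, and it fell at an edgeR adjusted p of 0.0011. C4b passed in 17 of 17 alternatives, at an adjusted p between 8.87e-12 and 0.0349, and leaving out any single library kept its log2 fold change between -1.87 and -1.59. With limma-trend on log2(FPKM + 1) it was -0.96, since the 1 added is large beside an FPKM below 3.

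The identity of C4b reads rests on bases that differ from C4a, its near copy, which was between 0.0574 and 0.408 CPM and not tested. The C4b and C4a transcripts matched at 96.1% of 5367 aligned bases, and 16.5% of the 100-base windows of C4b occur in C4a. Counts of C4b were not whole in 4 of 6 libraries. The 60 coding bases of C4b that differ most from C4a are shown with the aligned bases of C4a, from GENCODE M21 transcripts (GRCm38), and capitals mark the 13 positions at which they differ.
C4b, transcript positions 2761 to 2820: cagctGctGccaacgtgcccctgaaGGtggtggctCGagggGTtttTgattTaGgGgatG
C4a, transcript positions 2755 to 2814: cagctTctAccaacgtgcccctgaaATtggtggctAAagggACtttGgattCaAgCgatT

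C2, the protease zymogen of the classical convertase, measured 88.7, 77.4 and 107 CPM in TG, against 152, 118 and 168 CPM in WT. The groups did not overlap, and replicate 2 was the lowest library of each genotype. The mean of C2 was 90.9 ± 14.7 CPM in TG ovaries and 146 ± 25.5 CPM in WT ovaries (SD, n = 3 each). The log2 ratio of -0.68 (SE 0.15) had a 95% interval from -1.02 to -0.35 and missed the threshold with an edgeR adjusted p of 0.103. It passed in 3 of 17 alternatives, among them DESeq2 (adjusted p = 6.28e-04) and edgeR without WT replicate 2 (-0.82, adjusted p = 0.0196).

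Cfb, factor B of the alternative pathway, measured 1.5, 3.91 and 4.20 CPM in TG, against 9.38, 6.35 and 9.63 CPM in WT. These levels rest on 27 to 174 estimated counts per library, with TG replicate 1 the lowest. The groups did not overlap, and the log2 ratio was -1.40 (SE 0.34), with a 95% interval from -2.17 to -0.64 and an edgeR adjusted p of 0.17. DESeq2 called Cfb lower (adjusted p = 0.00237), the only 1 of 17 alternatives to do so. Without TG replicate 1 the log2 ratio was -1.06 (adjusted p = 0.168 in edgeR). Cfb and C2 are neighbours that GENCODE M21 overlaps with Gm20547, a gene model on the same strand, so reads from a transcript spanning them cannot be told apart from reads of either gene.

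C3, on which both routes converge (chromosome 17, 57203967 to 57228136, minus strand), measured 53.5, 39.1 and 57.6 CPM in TG, against 65.3, 51.2 and 50.4 CPM in WT. The groups overlapped. The log2 ratio was -0.15 (SE 0.15) at an edgeR adjusted p of 1.0, with a 95% interval from -0.50 to 0.20, so a fall larger than 0.50 on the log2 scale lies outside the interval. Single libraries moved this small value, to -0.003 without TG replicate 2, -0.025 without WT replicate 1 and -0.27 without TG replicate 3. C3 was the exception among the 9 genes in that WT replicate 2 was not its lowest WT library.

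C3ar1, the receptor for the C3a fragment, found on myeloid cells (chromosome 6, 122847140 to 122856157, minus strand), measured 5.61, 5.28 and 5.60 CPM in TG, against 12.4, 6.35 and 11.1 CPM in WT. Its pattern was that of the C1q genes, with TG libraries alike and WT replicate 2 the WT library nearest to them. The log2 ratio was -0.85 (SE 0.24), with a 95% interval from -1.39 to -0.32 and an edgeR adjusted p of 0.332. Without WT replicate 2 it was -1.10 and passed in edgeR (adjusted p = 0.00708), the only pass in 17 alternatives. The value was -0.67 without WT replicate 1 and -0.77 without WT replicate 3, at edgeR adjusted p of 0.943 and 0.754.

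**Figure D2:**
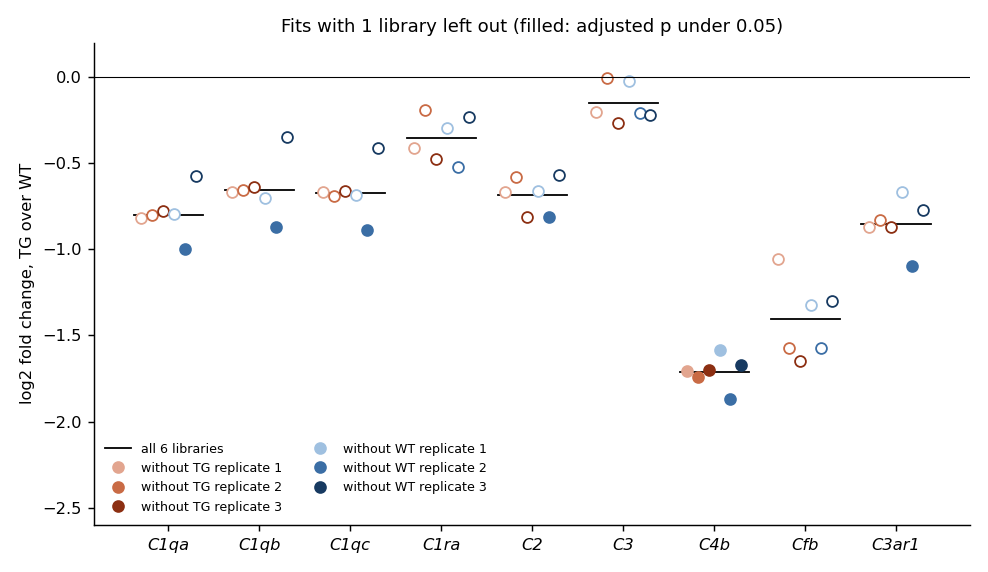
Log2 fold change (TG over WT, vertical axis) of each complement gene with all 6 libraries (black line) and with each library left out in turn (circles, filled where the adjusted p in edgeR was under 0.05). C4b is filled in all 6 fits, and C1qa, C1qb, C1qc, C2 and C3ar1 are filled only without WT replicate 2.

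Of the 9 genes, edgeR called 6 without WT replicate 2, where 1.24% of all genes tested were called, and DESeq2 called 5 on all libraries, where 1.3% were called. Limma-voom called 1 of 9, with 0.977% over all genes. TG replicate 2, high in adipocyte genes, and WT replicate 3, high in the oviduct gene Ovgp1, were also removed together. The log2 ratio was then -1.70 for C4b, -1.47 for Cfb, -0.74 for C3ar1 and -0.47 for C2. It was -0.58 for C1qa, -0.43 for C1qc, -0.35 for C1qb, -0.07 for C1ra and -0.07 for C3. C4b alone passed in edgeR in this fit. WT replicate 2 was the lowest WT library for 8 of 9 complement genes, for 14 of 18 macrophage markers and for 35.8% of all tested genes.

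By FPKM, which adjusts for length, the order of the mean levels over all 6 libraries was C1qa, C1qb, C1qc, C2, C1ra, C3, Cfb, C3ar1 and C4b. C1qa averaged 60.6 ± 2.31 FPKM in TG and 105 ± 31.1 FPKM in WT, and C4b averaged 0.733 ± 0.0153 FPKM in TG and 2.40 ± 0.513 FPKM in WT (SD, n = 3 each). The level of C1qa was above that of C1qb, and C1qb above C1qc, in each of the 6 libraries, while the level of C2 was above that of C1qc in TG replicate 3 and WT replicate 2 and below it in the others. In WT the averages were 90.6 ± 32.3 FPKM for C1qb, 67.5 ± 22.2 FPKM for C1qc and 58.9 ± 10.4 FPKM for C2. Of the 3 lowest genes Cfb, at 3.27 ± 0.72 FPKM, was the highest in every WT library, and C3ar1, at 2.40 ± 0.783 FPKM, and C4b changed places between WT libraries. In TG the level of Cfb was 1.24 ± 0.567 FPKM, that of C3ar1 1.34 ± 0.0586 FPKM, and C4b stood lowest in TG replicates 2 and 3.

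Most listed markers of macrophages, the known source of C1q, also had lower fitted levels in TG. Of 18 markers 16 had log2 fold changes below 0, as did 49.1% of all tested genes, with a median of -0.53 and a range from -1.79 to 0.22. Mertk (0.22) and Cd163 (0.03) were above 0, and Mrc1 (-0.03) and Lyz2 (-0.08) lay close to 0. Of the 18, 3 fell in edgeR, where 1.02% of all tested genes were called lower. DESeq2 called 7, against 1.3% of all genes, and limma-voom 2, against 0.977%. The 3 called by edgeR were Fcgr1, a high-affinity receptor for IgG (-1.79, adjusted p = 0.0119), Ctss, a lysosomal protease (-0.91, adjusted p = 0.0162), and Cybb, a subunit of the phagocyte oxidase (-0.77, adjusted p = 0.0434). The summed level of the 18 was 370, 324 and 344 CPM in TG, against 522, 378 and 527 CPM in WT, and none was at 0 in any library. Not all 18 are exclusive to macrophages, and Ptprc, Laptm5 and Cd53 are made by other leukocytes too. In whole ovaries, fewer cells that make these markers and less RNA of these genes per cell cannot be told apart. The part of the macrophage markers in the values of the complement genes was not tested.

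Set against the macrophage markers, the genotypes overlapped for the C1q sum, C1qb, C1qc, C1ra, C2 and C3, and did not overlap for C1qa, C3ar1, Cfb and C4b. The 3 C1q transcripts together measured 146, 145 and 140 CPM in TG, against 232, 162 and 316 CPM in WT. Per 100 CPM of macrophage markers this was 39.4, 44.9 and 40.8 CPM in TG and 44.4, 42.9 and 59.9 CPM in WT, and the groups overlapped. C1qa alone was 15.3, 17.1 and 15.5 CPM in TG and 18.6, 17.8 and 23.5 CPM in WT on this scale, with no overlap. C3ar1 was 1.52, 1.63 and 1.63 CPM in TG and 2.38, 1.68 and 2.11 CPM in WT, also with no overlap and with WT replicate 2 close to the TG libraries. C4b per 100 CPM of macrophage markers was 1.02, 1.22 and 1.08 CPM in TG and 2.82, 2.56 and 2.52 CPM in WT, with no overlap. Cfb on the same scale was 0.405, 1.21 and 1.22 CPM in TG and 1.80, 1.68 and 1.83 CPM in WT, also without overlap. The ratio of the group means, TG over WT, was 0.85 for the C1q sum, 0.801 for C1qa, 0.888 for C1qb and 0.878 for C1qc. It was 0.775 for C3ar1, 0.854 for C2, 0.534 for Cfb and 0.421 for C4b, but 1.08 for C1ra and 1.21 for C3. The sum leans on abundant markers such as Lyz2, at a mean of 92.5 CPM in TG and 97.6 CPM in WT. Over Csf1r alone the ratio of means for the C1q sum was 0.866, and over Adgre1 alone 0.936, with overlap in both. Which genes overlap may differ with the markers chosen. These ratios are a description and were given no test. The share of all genes whose groups do not overlap on the scale of summed macrophage markers was not measured. In plain CPM 5.04% of all tested genes were lower in TG without overlap.

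**Figure D3:**
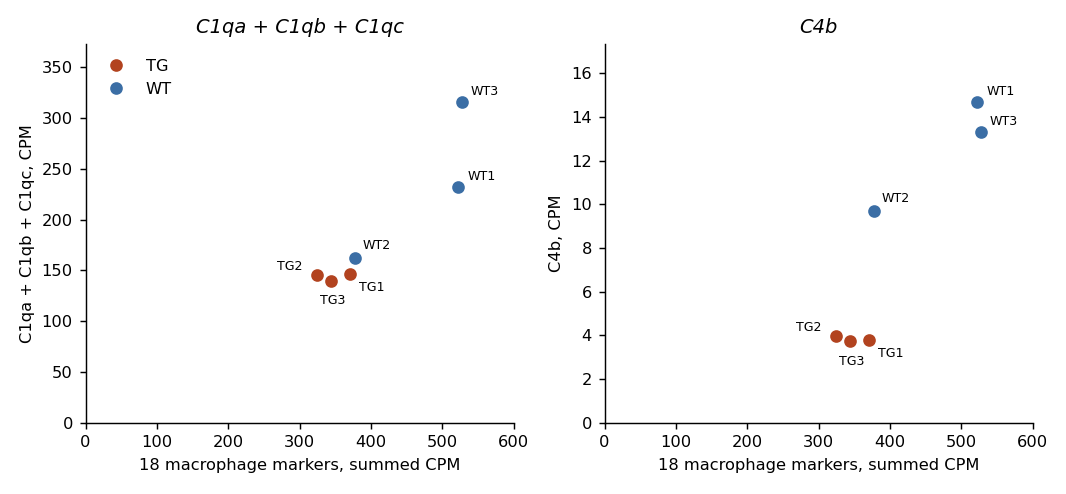
Summed CPM of C1qa, C1qb and C1qc (left) and CPM of C4b (right) against the summed CPM of 18 macrophage markers in each library, TG in red and WT in blue, with all axes from 0. WT replicate 2 lies beside the TG libraries for C1q at 162 CPM, and above them for C4b at 9.68 CPM.

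Interferon-stimulated genes moved in the same direction. Of 12 listed, 11 were measured and edgeR called all 11 lower in TG, against 1.02% of all tested genes. Their median log2 fold change was -3.15, with a range from -4.03 to -1.30. The list was written with earlier results of these data known, so this count is a description. Oas1a, an antiviral synthetase, Ifi44 and Irf7, an interferon-amplifying transcription factor, had the smallest p, at -2.84, -3.12 and -3.78. The 11 genes summed to 285, 301 and 297 CPM in TG, against 1564, 1188 and 1837 CPM in WT. Their part in the values of the complement genes was not tested. Over 9 lists of granulosa, theca, stromal, endothelial, surface epithelial, lymphocyte, adipocyte, oviduct and liver cell genes, 49 genes were tested. EdgeR and limma-voom called 0 of 49, and DESeq2 called 1, the theca androgen-synthesis gene Cyp17a1 (0.73, adjusted p = 2.54e-04 in DESeq2). EdgeR, limma-voom and DESeq2 called 1.05%, 0.977% and 1.3% of all genes, so 49 genes would hold few calls at the overall rate. At an unadjusted p under 0.05 in edgeR 4 were lower and 4 higher, against 3.14% lower and 0.935% higher of all tested genes. Stromal matrix genes, from cells that also make C1r, summed to between 2961 and 3469 CPM in TG and between 2709 and 3787 CPM in WT, and their median log2 fold change was -0.03.

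Genes beside the complement genes on the chromosome were also read. Within 100 kb of the stretch from C4b to C2, 16 other genes were tested. EdgeR, DESeq2 and limma-voom called 0 of them, 0 had an unadjusted p under 0.05, and their log2 fold changes lay between -0.53 and 0.37 with a median of -0.06. Around the C1q genes 3 others were tested, with 0 called by these tools, 0 at an unadjusted p under 0.05, and values between 0.02 and 0.12. EdgeR, DESeq2 and limma-voom called 1.05%, 1.3% and 0.977% of all genes. At an unadjusted p under 0.05 in edgeR 3.14% of all tested genes were lower and 0.935% higher. Lists this short would hold few or no such genes at these rates.

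**Figure D4:**
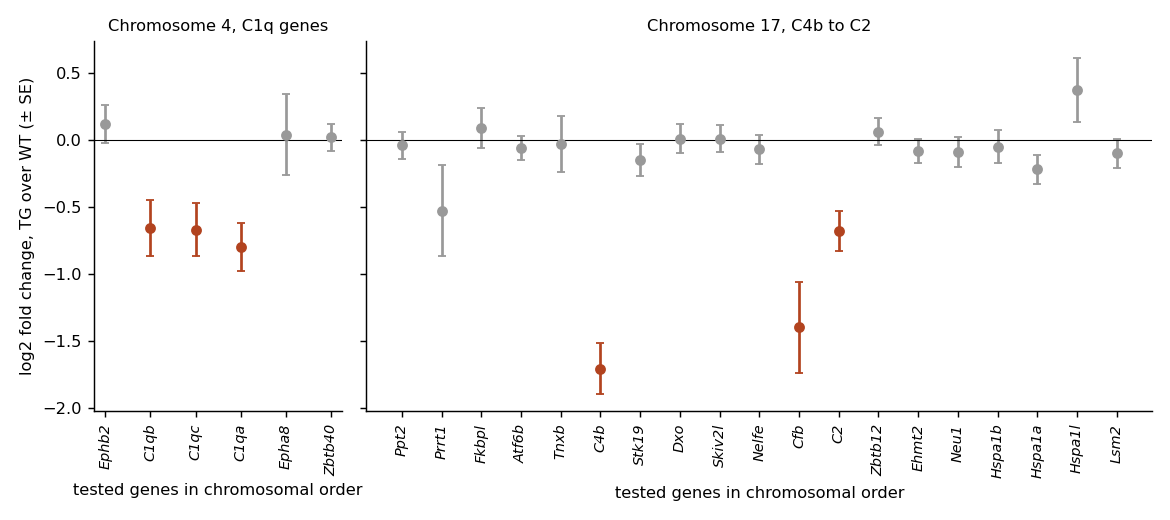
Log2 fold change (TG over WT) ± SE of tested genes in chromosomal order, within 100 kb of the C1q genes on chromosome 4 (left) and of the stretch from C4b to C2 on chromosome 17 (right), complement genes in red. The complement genes lie between -1.71 and -0.66, and their neighbours between -0.53 and 0.37.

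The rest of the pathway was followed in 47 further genes, of which 44 were in the table and 28 could be tested. In edgeR, DESeq2 and limma-voom 0 of the 28 were called, where these tools called 1.05%, 1.3% and 0.977% of all genes, so a list of this length would hold few calls at the overall rate. An unadjusted p under 0.05 by edgeR was reached by 2 lower and 2 higher genes, against 3.14% lower and 0.935% higher of all tested genes. The median log2 fold change of the 28 was -0.01, and 16 of 28 were below 0, against 49.1% of all tested genes. Among the genes that start the classical and lectin pathways 0 of 5 were called. C1s1, the protease partner of C1r, measured 144, 103 and 136 CPM in TG, against 149, 112 and 147 CPM in WT, and its log2 ratio was -0.09 (95% interval -0.42 to 0.24). Masp1, a lectin-pathway protease, had -0.25 (unadjusted p = 0.0512) and Colec11, a collectin, -0.11.

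In the alternative pathway Cfp, which encodes properdin, the stabiliser of the C3 convertase, measured 13.8, 14.9 and 15.6 CPM in TG, against 19.3, 15.8 and 25.3 CPM in WT. The groups did not overlap, and the log2 fold change of -0.45 had an adjusted p of 0.892 in edgeR. Cfd, the adipocyte protease factor D, was 86.8 CPM in TG replicate 2, the library high in adipocyte genes, and at most 9.45 CPM elsewhere (log2 fold change 3.08, 95% interval -0.31 to 6.48). Cfd is itself 1 of the 7 listed adipocyte genes and made up 86.8 of their 191 CPM in that library. The match is therefore partly built in. Cfd counts both among the 28 further complement genes and among the 49 genes of the cell type lists. In the terminal pathway C7, C8g and C5 had log2 fold changes of 0.58, 0.28 and 0.22, each with an interval that includes 0.

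Regulators had 0 of 11 called. Cd59b, an inhibitor of the membrane attack complex, had a log2 ratio of 0.89 at 1.20 CPM in TG and 0.642 CPM in WT (unadjusted p = 0.0428), and Susd4 had 0.36 (unadjusted p = 0.0498). Serping1, the C1 inhibitor, measured 150, 96.7 and 139 CPM in TG, against 170, 133 and 193 CPM in WT. The log2 ratio was -0.37 (95% interval -0.76 to 0.03), and the groups overlapped. Receptors had 0 of 7 called. Itgb2, the shared chain of complement receptors 3 and 4, had -0.48 (unadjusted p = 0.0195, adjusted p = 0.793 in edgeR). C5ar2 had -0.78 and Itgam, the partner chain of receptor 3, -0.35. The groups did not overlap for these 3 of the 7 receptor genes, each lower in TG, as for 5.04% of all tested genes. They overlapped for C5ar1, Itgax, Cd93 and Calr.

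**Figure D5:**
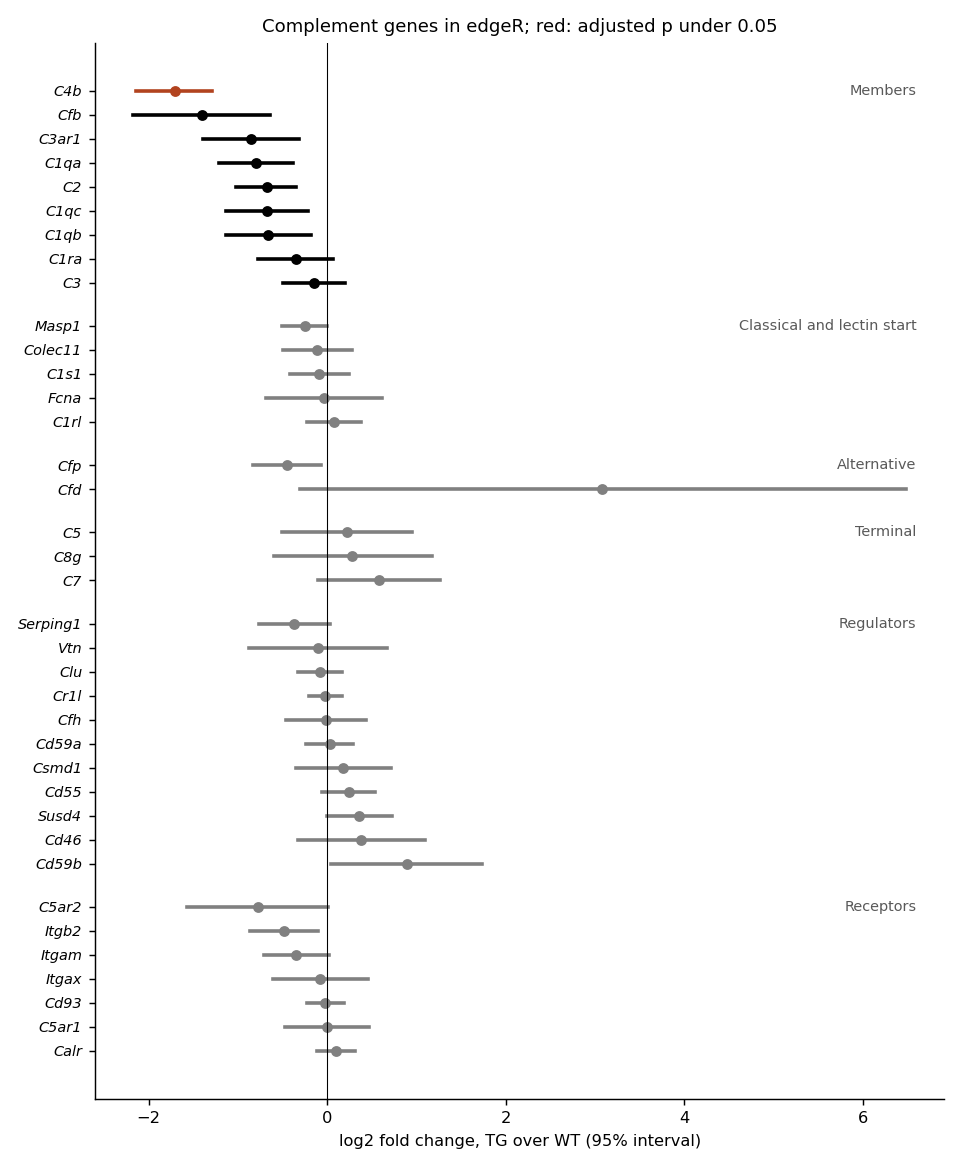
Log2 fold change (TG over WT, horizontal axis) with its 95% interval for the 9 complement genes and 28 further complement genes by role, red where the adjusted p in edgeR was under 0.05. C4b is the red gene, and 7 of the 9 have intervals wholly below 0.

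The genes whose log2 CPM profile over the 6 libraries was most like the mean of the 3 C1q genes, among 10283 tested genes with a mean of at least 10 CPM, were Mov10 (Pearson r = 0.988), Cnppd1 (0.982), Stk19 (0.978), Cfp (0.974) and Fcer1g (0.972). With 6 libraries and a genotype difference in common, such values are a description. A like profile did not mean a difference of like size. The log2 fold changes of these genes were, in the same order, -0.46, -0.15, -0.15, -0.45 and -0.70. None of them passed in edgeR. Mov10, an RNA helicase, measured 55.6, 52.2 and 56.1 CPM in TG, against 74.5, 60.5 and 90.5 CPM in WT. Fcer1g, a signalling chain of Fc receptors, measured 21.7, 25.3 and 22.6 CPM in TG, against 41.5, 24.3 and 47.6 CPM in WT.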

How the data were processed

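Whole-ovary RNA of 3 TG and 3 WT mice was sequenced on a BGISEQ-500 according to the labels' protocols. Tools named in the submitters' processing notes, with no roles, are RSEM 1.3.1, Bowtie2 and DESeq2 1.4.5, with the build mm10. The annotation and strandedness are not given in the sources used here. The authors deposited estimated counts per gene and, in columns whose unit the headers do not name, values identified as FPKM deposited by the authors. The unit was checked on genes with 1 transcript, of more than 2000 bases and more than 500 counts. Count divided by FPKM, library total and transcript length had a median of 0.941 to 0.944. Count divided by FPKM and by library total rose with transcript length at a slope of 0.967 to 0.971. Genes far from the median were left out before this fit, which by itself favours a slope near the median. The deposited group averages were not used.

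Rounded counts entered edgeR 4.0.16 under R 4.3.3 (TMM, filterByExpr with a minimum of 10 and a total of 15, two-sided quasi-likelihood test, Benjamini-Hochberg over 14124 genes, threshold 0.05). CPM use effective library sizes. Standard errors are the fold change over the square root of F. The common biological coefficient of variation was 12.5%. Replicates differed by more than sampling noise (chi-square per degree of freedom 7.92 to 21.9). The script was tested on simulated data. Alternatives used DESeq2 1.42.0 and limma 3.58.1. The genes, lists and rules were chosen with earlier results of these data known. Named genes were the 9 members, any other complement gene called, up to 3 genes with the smallest p per list, and the 5 most like C1q.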

Additional observations from a re-analysis of the deposited data

How the results depend on the processing

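All 9 complement genes had negative log2 fold changes in all 17 alternatives. The count called was 1 in edgeR and stayed 1 with RLE, upper-quartile or no composition factors, with all counted genes kept or a minimum of 50 counts in 3 libraries, with limma-voom, with limma-trend on log2(FPKM + 1) or log2(FPKM + 0.1), and after leaving out WT replicate 3 together with TG replicate 2. It was 5 in DESeq2 and ranged from 1 to 6 when single libraries were left out, the 6 being without WT replicate 2. Of the other complement genes 0 were called in all 17. With the replicate number as a block 2 of 9 were called, C4b and C2 (adjusted p = 0.00304 for C2 in edgeR), and 159 genes of all tested in place of 149. Deviations of same-numbered libraries correlated at 0.23, 0.08 and 0.09, and every library correlated best with its own number, a hint from the data and not from the design, since no label pairs the animals. C1qb and C3ar1 missed the threshold in DESeq2 at adjusted p of 0.065 and 0.0681. Counts per library reached at most 174 for Cfb, 230 for C3ar1 and 273 for C4b, with standard errors of 0.34, 0.24 and 0.19 on the log2 scale, against 0.15 to 0.21 for the other 6. The cause of these changes was not tested.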

Other observations

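Among the further complement genes, 16 were measured but too low to be tested. The highest value of any of them in any library was 0.808 CPM, for C1rb, and C8a, C8b, Masp2, C4bp, Cpn1, Cpn2, Cr2, Vsig4 and C1s2 were at 0 in at least 1 library. Neutrophil markers summed to between 0.388 and 0.992 CPM in TG and between 0.431 and 0.529 CPM in WT libraries.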
